A study of Saccharomyces cerevisiae with 24 samples.

Results

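Budding yeast cultures were pipetted by an OT-2 liquid handling robot at 50, 130, 210 or 290 µL/s, and RNA was sequenced from 24 samples, 1 for each combination of 4 pipetting speeds, 2 biological replicates and 3 technical replicates. Described here are the 8 samples whose titles give technical replicate 3. They are 4 samples of biological replicate 2 (B2T3) and 4 of biological replicate 1 (B1T3), with 1 sample of each culture at each speed. All samples were the wild-type strain W303 (W303-1B in the study's methods), grown in YPD at 30 °C without any chemical treatment, and the biological replicates were separate culture batches of identical clones. B2T3 was compared with B1T3 across all genes, with the libraries paired by pipetting speed. Each side is a single culture, so the p-values below measure the spread among libraries of these cultures and not the spread among cultures. The study's methods list 1 tube of each culture on the robot's deck, so the 3 technical replicates came from the same 2 cultures.

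W303 is a laboratory strain that carries several nutritional markers. In glucose medium budding yeast ferments, and glucose represses the genes of respiration, gluconeogenesis and the use of other carbon sources. Ergosterol is the main sterol of the yeast membrane. It is made from acetyl-CoA through the mevalonate pathway, squalene and lanosterol, and its later steps consume molecular oxygen and use enzymes that contain heme. Upc2 and Ecm22 are transcription factors that activate the sterol genes when sterol is low, and Hap1 is a heme-responsive factor that activates respiratory and sterol genes. The respiratory chain also depends on heme and consumes oxygen.

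Expected counts of the 8 libraries summed to between 11707060 and 15464458, with a median of 13410498.5, and 5142 of 5193 genes had an average count above 1 and were tested. The mean fragment length was 179.5 to 187.8 bases in B2T3 and 179.6 to 190.3 bases in B1T3. The 50 most abundant genes took 27.7 to 28.8% of the counts in B2T3 and 26.6 to 28.9% in B1T3. Pearson correlation coefficients (PCCs) of untransformed counts between libraries were lowest for 50 µL/s B1T3, at 0.9847 to 0.9949 with the other 7 libraries. Counts of genes in the lists described are therefore also given without both libraries at 50 µL/s, an alternative added after the data were seen. The study's methods give the mating type as MATa. The 4 alpha-cell specific genes together had 2562 ± 53.4 CPM (counts scaled to a common library size) in B2T3 and 2555 ± 83.6 CPM in B1T3 (SD, n = 4 each), against 39.8 ± 2.26 CPM in B2T3 and 41.7 ± 3.41 CPM in B1T3 for the 4 tested a-cell specific genes. STE3, the receptor for a-factor, had 486 to 565 CPM in B2T3 and 483 to 520 CPM in B1T3, whereas STE2, the receptor for alpha-factor, had 5.43 to 7.44 CPM in B2T3 and 6.68 to 7.69 CPM in B1T3. The markers in both cultures were thus those of alpha cells, which goes against the stated mating type, and none of these 8 genes passed the test between the cultures.

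Within technical replicate 3, transcripts of sterol synthesis and of the respiratory chain were higher in B2T3 than in B1T3, and a smaller set, with genes repressed by glucose among it, was lower. In edgeR's quasi-likelihood test with Benjamini-Hochberg adjustment, 104 genes were higher in B2T3 at a false discovery rate (FDR) below 0.01, which was 2.02% of the 5142 genes tested. 20 genes were lower, 0.389% of those tested, so that 124 genes or 2.41% passed in all. At an unadjusted p below 0.05 there were 1091 genes. The 104 higher genes had log2 fold changes of 0.20 to 1.70 with a median of 0.50, and 7 of them were more than 2-fold higher. The 20 lower genes had log2 fold changes of -0.75 to -0.24 with a median of -0.40. Over all genes tested the median log2 fold change was -0.01, and the median standard error (SE) was 0.05. In these bulk libraries fewer cells of a type and less RNA per cell cannot be told apart.

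All 104 higher genes were higher at each of the 4 speeds, and of all 5142 genes tested 809 were. For 94 of the 104 the lowest B2T3 library was above the highest B1T3 library. Such a separation was seen for 342 of all genes tested (6.65%). All 20 lower genes were lower at each of the 4 speeds, and of all genes tested 781 were. For 17 of the 20 the highest B2T3 library was below the lowest B1T3 library, a separation seen for 248 of all genes tested (4.82%). Both sets were called from these same libraries, so these counts describe them and are no further test. Without either library at 130 µL/s, 46 genes were higher and 3 lower, and without a library at 210 µL/s, 60 or 66 were higher and 6 lower. Without 50 µL/s B1T3 231 were higher and 132 lower, and without 50 µL/s B2T3 231 were higher and 138 lower. With speed as a factor, a library whose partner is left out informs only the term for its speed. Each of these fits thus in effect left out a whole pair, and they cannot single out 1 library of it.

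Ergosterol synthesis held 6 of the 7 genes that were more than 2-fold higher, and SCM4, described below, was the other. Of the 29 genes of the pathway and its regulators, 23 rose in B2T3, 1 fell and 5 did not pass, with a median log2 fold change of 0.66. The highest was CYB5, which encodes cytochrome b5, an electron donor to sterol and lipid enzymes. CYB5 had 298, 243, 184 and 135 CPM in B2T3 at 50, 130, 210 and 290 µL/s, against 68.2, 63.1, 56.1 and 67.3 CPM in B1T3. Every B2T3 library was above every B1T3 library, and B2T3 was lower at each higher speed while B1T3 stayed in a narrow range. The fitted difference was 3.26-fold, or 1.70 ± 0.16 on the log2 scale (SE, adjusted p = 0.000443). Per coding length, CYB5 lay between 649 and 1379 TPM (a measure of level that corrects for gene length) in B2T3 and between 267 and 332 TPM in B1T3.

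In the mevalonate part of the pathway, ERG10 (acetoacetyl-CoA thiolase) and ERG13 (HMG-CoA synthase) rose by 0.69 ± 0.03 and 0.89 ± 0.04 on the log2 scale. HMG1, 1 of the genes for HMG-CoA reductase, the regulated step of the pathway, had 1140, 894, 664 and 508 CPM in B2T3 in order of speed, against 265, 275, 266 and 307 CPM in B1T3. The groups were furthest apart at the lowest speed and nearest at the highest. HMG1 was 2.76-fold higher in B2T3 (log2 fold change 1.46 ± 0.18, adjusted p = 0.00273). Its paralog HMG2 had 312 to 348 CPM in B2T3 and 281 to 365 CPM in B1T3, and its log2 fold change was -0.04 (adjusted p = 0.677). The kinases ERG12 and ERG8, the decarboxylase MVD1 and the isomerase IDI1 rose by 0.48, 0.75, 0.85 and 0.78. ERG20, the farnesyl diphosphate synthase that also feeds other pathways, rose by 0.36.

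From squalene to ergosterol the differences ran over nearly every step. ERG9 (squalene synthase) rose by 0.53, ERG1 (squalene epoxidase) by 1.19 and ERG7 (lanosterol synthase) by 0.74. ERG11, the cytochrome P450 lanosterol demethylase that azole antifungals inhibit, had 3534, 3448, 2908 and 2447 CPM in B2T3 at 50, 130, 210 and 290 µL/s, against 1540, 1605, 1401 and 1329 CPM in B1T3. The lowest B2T3 library was well above the highest B1T3 library, and ERG11 was 2.08-fold higher in B2T3 (log2 fold change 1.06 ± 0.05, adjusted p = 1.15e-05). NCP1, the reductase that supplies Erg11 with electrons, rose by 0.28. ERG24, ERG25, ERG26, ERG27, ERG28 and ERG6, which carry or organise the steps that follow demethylation, rose by 0.56, 0.93, 0.65, 0.55, 0.57 and 0.66.

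At the end of the pathway ERG2 rose by 0.52, although its libraries overlapped, with 443 to 629 CPM in B2T3 and 306 to 452 CPM in B1T3. ERG3, the C-5 desaturase, rose by 1.07. ERG5, the C-22 desaturase and a second cytochrome P450 of the pathway, had 933, 767, 566 and 468 CPM in B2T3, against 203, 233, 253 and 323 CPM in B1T3. All its B2T3 libraries were above all its B1T3 libraries. Its log2 fold change of 1.40 ± 0.23 had an adjusted p of 0.01004, just outside the threshold, and the difference varied strongly with speed. ERG4, the last enzyme, had a log2 fold change of 0.17 (adjusted p = 0.0197). Of the sterol acyltransferases that store sterol as esters, ARE2 had 575, 477, 376 and 318 CPM in B2T3 against 172, 181, 195 and 206 CPM in B1T3, a log2 fold change of 1.18 ± 0.15, and ARE1 had one of 0.00. UPC2 fell by 0.41, with 50.5, 64.6, 66.7 and 80.3 CPM in B2T3 against 74.1, 85.2, 94.2 and 93.8 CPM in B1T3, and its groups overlapped. ECM22 had a log2 fold change of -0.21 (adjusted p = 0.0424).

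**Figure D1:**
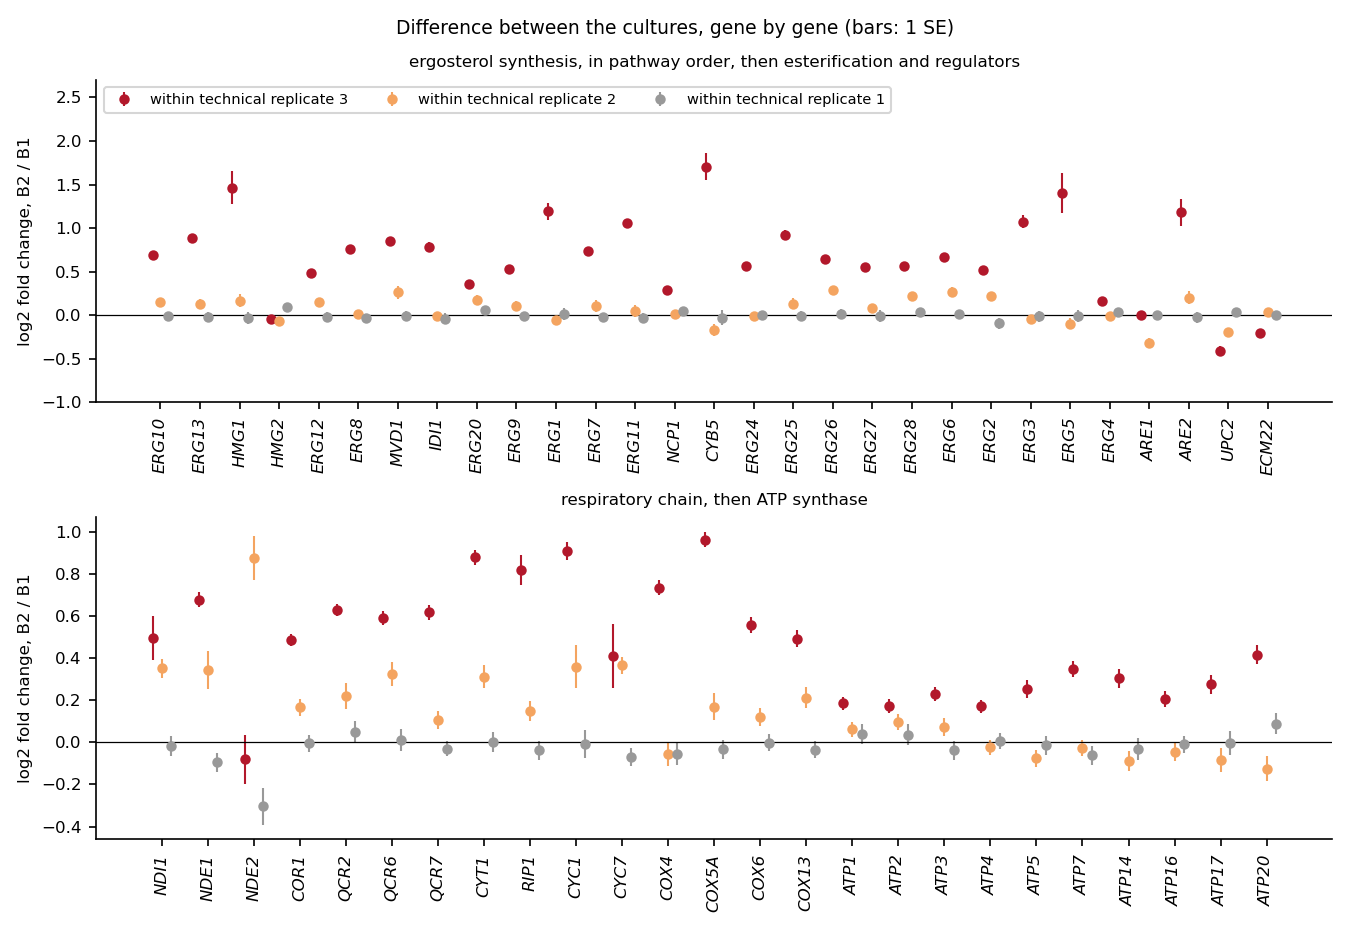
Log2 fold change of biological replicate 2 over biological replicate 1 (points, with bars of 1 SE) for the 29 genes of the ergosterol list (upper panel) and the 25 tested genes of the respiratory list (lower panel), within technical replicates 3, 2 and 1. Within technical replicate 3, 25 sterol genes and 23 respiratory genes were higher at all 4 speeds, against 809 of all 5142 genes tested. The points of technical replicate 1 lie near 0.

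Summed over the 29 genes, the sterol list had 23195, 21596, 18650 and 16256 CPM in B2T3 at 50, 130, 210 and 290 µL/s, against 11995, 11995, 11045 and 10843 CPM in B1T3. The mean was 19924 ± 3086 CPM in B2T3 and 11470 ± 612 CPM in B1T3 (SD, n = 4 each). In the other technical replicates it was 10249 ± 188 CPM in B2T2 and 9750 ± 999 CPM in B1T2, and 10771 ± 498 CPM in B2T1 and 10819 ± 1156 CPM in B1T1. Every B2T3 library was thus above all 20 libraries of the other groups. With each library of technical replicate 3 left out in turn, between 20 and 25 genes of the list were higher, and 20 were higher in every one of these fits. The 3 that were not were HMG1, ARE2 and NCP1. Without both libraries at 50 µL/s 25 were higher and 2 lower, and without the speed term 19 were higher.

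**Figure D2:**
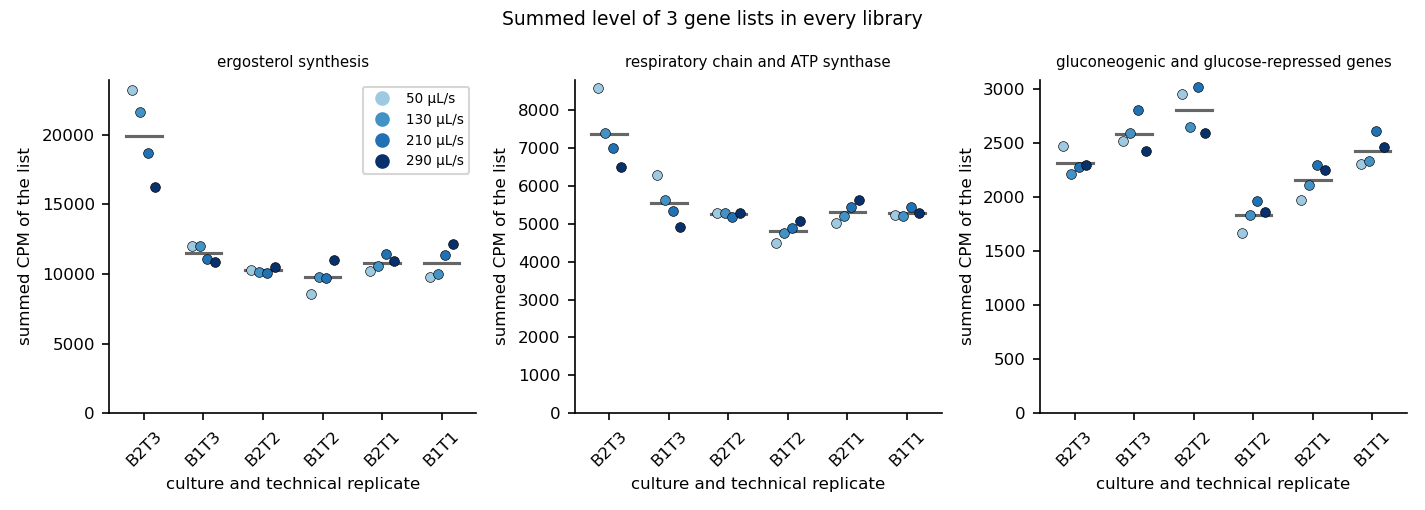
Summed CPM of the genes of 3 lists in each of the 24 libraries, by culture and technical replicate, with points shaded by pipetting speed and a line at each group's mean. The sterol list lies between 16256 and 23195 CPM in B2T3 and at or below 12165 CPM in every other library shown.

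Among genes outside that list, ERG29, a gene needed for normal sterol composition, had 76.1, 65.6, 49.8 and 47.2 CPM in B2T3 against 28.5, 30.8, 31.7 and 29.1 CPM in B1T3 (log2 fold change 0.97 ± 0.12, adjusted p = 0.00232). SCM4, a mitochondrial outer membrane protein gene, had 224, 178, 148 and 118 CPM in B2T3 against 53.4, 58.9, 63.2 and 78.3 CPM in B1T3 (1.37 ± 0.20, adjusted p = 0.00533). In both genes no B2T3 library overlapped with a B1T3 library. The genes that follow were picked after their values were seen. DAP1, which encodes a heme-binding partner of Erg11, rose by 0.80, NSG2, which encodes a protein that stabilises HMG-CoA reductase, rose by 0.60, and ATF2, which encodes an acetyltransferase that acts on sterols, rose by 0.64. YEH1, a steryl ester hydrolase gene, rose by 0.71, and PLN1, which encodes a lipid droplet protein, rose by 0.61. ACS2, the acetyl-CoA synthetase of glucose-grown cells, had 2240, 2051, 1755 and 1478 CPM in B2T3 against 1228, 1189, 1085 and 993 CPM in B1T3, and rose by 0.73.

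The respiratory chain formed the other large group. Of 25 tested nuclear genes for the respiratory chain and ATP synthase, 16 rose in B2T3, none fell and 9 did not pass, with a median log2 fold change of 0.48. COX5A, a subunit of cytochrome c oxidase, had 197, 165, 146 and 121 CPM in B2T3 at 50, 130, 210 and 290 µL/s, against 99.2, 86.5, 72.9 and 63.8 CPM in B1T3. It was lower at each higher speed in both cultures, and the groups did not overlap. COX5A was 1.95-fold higher in B2T3 (log2 fold change 0.96 ± 0.04, adjusted p = 9.81e-06). The other cytochrome c oxidase genes COX4, COX6 and COX13 rose by 0.73, 0.56 and 0.49. CYC1, the main cytochrome c, had 242, 189, 162 and 133 CPM in B2T3 against 136, 102, 86.1 and 65.0 CPM in B1T3. Its ranges overlapped slightly, because 290 µL/s B2T3 was below 50 µL/s B1T3, but at a matched speed B2T3 was always higher (0.91 ± 0.04). CYC7, the minor cytochrome c, had a log2 fold change of 0.41 (adjusted p = 0.18).

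In complex III, CYT1 (cytochrome c1) had 486, 409, 358 and 315 CPM in B2T3 against 246, 220, 202 and 180 CPM in B1T3, a log2 fold change of 0.88 ± 0.04 with an adjusted p of 9.81e-06. RIP1, the Rieske iron-sulfur protein, rose by 0.82, QCR2 by 0.63, QCR7 by 0.62, QCR6 by 0.59 and COR1 by 0.48. NDE1, the external NADH dehydrogenase, rose by 0.68, whereas the internal enzyme NDI1 had a log2 fold change of 0.50 (adjusted p = 0.0337) and NDE2 one of -0.08 (adjusted p = 0.739). The ATP synthase genes had smaller differences. ATP20, ATP7, ATP14 and ATP3 rose by 0.42, 0.35, 0.30 and 0.23, and the catalytic subunits ATP1 and ATP2 had log2 fold changes of 0.19 (adjusted p = 0.0128) and 0.17 (adjusted p = 0.0222).

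Summed over the list, the respiratory genes had 8596, 7412, 7013 and 6498 CPM in B2T3 against 6303, 5642, 5347 and 4915 CPM in B1T3. The sum was lower at each higher speed in both cultures, and the lowest B2T3 library was above the highest B1T3 library. In technical replicate 2 the sum was 5187 to 5295 CPM in B2T2 and 4504 to 5085 CPM in B1T2, so these groups were also separated. In technical replicate 1 it was 5010 to 5630 CPM in B2T1 and 5216 to 5454 CPM in B1T1. Leaving out 1 library at a time gave 12 to 23 genes higher, with 12 higher in every such fit, and 23 were higher without both libraries at 50 µL/s. This group depended on the pairing by speed, because without the speed term 1 of the 25 genes passed.

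**Figure D3:**
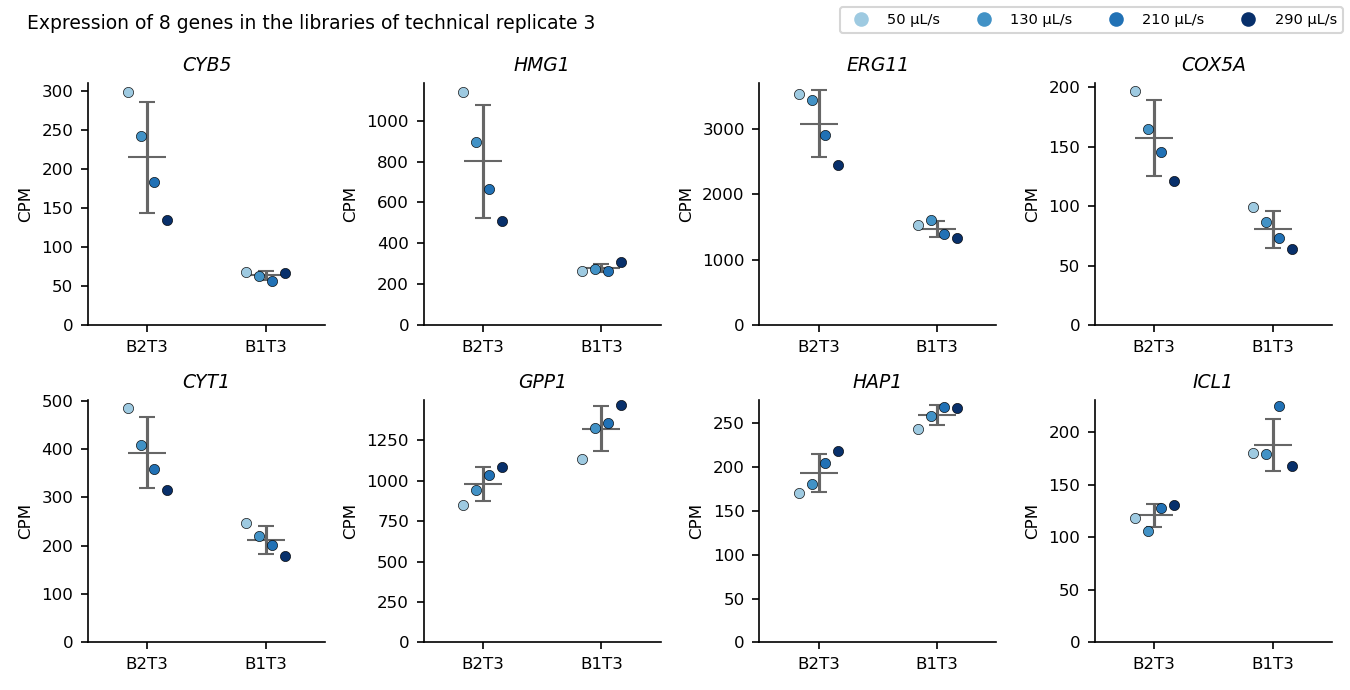
CPM of 8 genes in the 4 libraries of B2T3 (left in each panel) and the 4 of B1T3 (right), with points shaded by pipetting speed and bars giving the mean ± 1 SD. No B2T3 library overlaps with a B1T3 library in any of the 8 panels, with CYB5, HMG1, ERG11, COX5A and CYT1 higher and GPP1, HAP1 and ICL1 lower in B2T3.

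In the citric acid cycle list 3 of 25 genes rose. They were SDH1 and SDH2, subunits of succinate dehydrogenase, with log2 fold changes of 0.37 and 0.31, and KGD1 of the 2-oxoglutarate dehydrogenase complex with 0.24. CIT2, the peroxisomal citrate synthase on the same list, fell by 0.57. The number higher was 0 without either library at 130 µL/s, 1 without either at 210 µL/s and 9 without either or both at 50 µL/s. SOD2, the mitochondrial superoxide dismutase, rose by 0.43, and the peroxiredoxin TSA1 rose by 0.27. COX15, which acts in the synthesis of heme A, rose by 0.44, HEM2, an enzyme of heme synthesis, by 0.29, and COQ2, an enzyme of ubiquinone synthesis, by 0.52. These last 3 genes were named after their values were seen. None of 62 mitochondrial ribosomal protein genes passed the test, and their median log2 fold change was -0.07.

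Of 29 genes for fatty acids and phospholipids, 5 rose and 1 fell, with a median log2 fold change of 0.03. OLE1, the fatty acid desaturase, had 4728, 4493, 3818 and 3391 CPM in B2T3 against 2779, 2762, 2694 and 2610 CPM in B1T3. The groups were well separated (log2 fold change 0.59 ± 0.06, adjusted p = 0.000928). FAA1, an acyl-CoA synthetase, rose by 0.50, and the fatty acid synthase subunits FAS1 and FAS2 rose by 0.22 and 0.23, and ITR1, an inositol transporter, by 0.20. INO1, the inositol synthase, fell by 0.38, with 80.8, 39.6, 45.7 and 45.8 CPM in B2T3 against 103, 57.8, 62.3 and 52.2 CPM in B1T3. Both cultures had their highest INO1 level at 50 µL/s. On the whole list 0 genes were higher without either library at 130 µL/s, 2 without 1 at 210 or 290 µL/s and 8 without either or both at 50 µL/s. Among sphingolipid enzymes, named after their values were seen, SCS7 rose by 0.44 and SUR2 fell by 0.33.

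Sulfur amino acid metabolism had 6 of 39 genes higher and 1 lower. SAM2, an S-adenosylmethionine synthetase, had 1984, 1846, 1664 and 1433 CPM in B2T3 against 1292, 1173, 1050 and 875 CPM in B1T3, a log2 fold change of 0.66 ± 0.03 (adjusted p = 9.81e-06). SAM1, a near-identical copy with which it may share reads, rose by 0.28. MET6, the methionine synthase, rose by 0.43, MET14 and MET5 of sulfate assimilation by 0.37 and 0.32, and CYS4 by 0.21. The glutathione and peptide transporter gene OPT1 fell by 0.25. The number higher was 1 without either library at 130 µL/s, 2 without either at 290 µL/s or without 210 µL/s B2T3, 13 without either at 50 µL/s and 12 without both, and none passed without the speed term. S-adenosylmethionine is the methyl donor of the sterol methyltransferase Erg6.

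On the hypoxic list 2 of 23 genes rose and 1 fell. ANB1, the hypoxic form of translation factor eIF5A, had 454, 470, 416 and 378 CPM in B2T3 against 278, 312, 296 and 313 CPM in B1T3, with a log2 fold change of 0.52 ± 0.06 (adjusted p = 0.00231). It has a near-identical copy, and RSEM divides reads that fit both. The other gene that rose was OLE1. HAP1 had 170, 180, 204 and 218 CPM in B2T3 against 243, 258, 269 and 267 CPM in B1T3, and it fell by 0.43 (adjusted p = 0.000925) without overlap. Its level was higher at each higher speed in B2T3. On this list 0 genes were higher and 0 lower without either library at 130 µL/s, 1 was higher without 1 at 210 µL/s, 3 were higher without 1 at 290 µL/s, and 3 were higher and 4 lower without both at 50 µL/s.

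The lower genes were few in any list. Of them only CIT2, GPP1 and HSP30 passed in every fit that left out 1 library. YGR067C, an uncharacterised gene that glucose represses, had the largest negative difference. It had 44.8, 38.3, 46.4 and 51.3 CPM in B2T3 against 73.0, 76.8, 91.3 and 65.6 CPM in B1T3, without overlap (log2 fold change -0.75 ± 0.10, adjusted p = 0.00354). ADH2, the alcohol dehydrogenase that consumes ethanol, had a low level of 14.1, 13.6, 15.9 and 11.2 CPM in B2T3 against 24.0, 20.0, 23.8 and 20.3 CPM in B1T3. ADH2 fell by 0.69, but it is similar in sequence to the abundant ADH1, with which it may share reads.

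Of 32 gluconeogenic and glucose-repressed genes, 2 fell and none rose, with a median log2 fold change of -0.18, and in 13 of the 32 every B2T3 library was below every B1T3 library. ICL1, isocitrate lyase of the glyoxylate cycle, had 119, 106, 128 and 131 CPM in B2T3 against 180, 179, 225 and 168 CPM in B1T3 (log2 fold change -0.63 ± 0.07, adjusted p = 0.00122). ACS1, the acetyl-CoA synthetase gene that glucose represses, had 25.6, 20.5, 25.4 and 27.5 CPM in B2T3 against 38.7, 38.3, 39.0 and 34.0 CPM in B1T3, and it fell by 0.60. JEN1, the lactate transporter, was separated in the same direction, but its log2 fold change of -0.65 had an adjusted p of 0.0187. The number lower was 0 without either library at 130 µL/s, 1 without either at 210 µL/s, 5 without either at 290 µL/s and 10 without either or both at 50 µL/s. Both ACS1 and ICL1 were lost in at least 1 of these fits.

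GPP1 and GPP2 encode the isoenzymes of glycerol-3-phosphate phosphatase, and they moved in opposite directions. GPP1 had 850, 944, 1036 and 1088 CPM in B2T3 against 1136, 1325, 1359 and 1467 CPM in B1T3, and fell by 0.43 (adjusted p = 6.14e-05). GPP2 had 193, 188, 185 and 197 CPM in B2T3 against 129, 143, 146 and 155 CPM in B1T3, and rose by 0.41 (adjusted p = 0.00167). Neither gene had overlapping groups. HSP30, a plasma membrane stress protein, fell by 0.47, and it was the 1 member of 23 tested heat shock genes that passed, against 6 lower without either or both libraries at 50 µL/s. GDH2, the glutamate dehydrogenase that releases ammonium, fell by 0.36, and DIP5, an acidic amino acid permease, fell by 0.24. Of the remaining lower genes, TNA1, the nicotinic acid permease, fell by 0.28, BTN2, a protein of aggregate handling, by 0.36, SND1, a targeting factor for membrane proteins, by 0.44 and PHM8, a phosphatase, by 0.27. TNA1, BTN2 and SND1 were on no list, and TNA1 and BTN2 were named after their values were seen.

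In other lists 1 or 2 members rose. They were HXT4 (a hexose transporter, 0.32), ADE3 and ADE17 (purine and folate enzymes, 0.32 and 0.71), SER33 (serine synthesis, 0.32), AGA1 (a subunit of agglutinin, 0.37), ADH4 (an alcohol dehydrogenase of the zinc regulon, 0.31), CHA1 (serine deaminase, 0.32) and the efflux and lipid transfer genes YOR1 and PDR16 (0.35 and 0.43). ADE17 had 268, 238, 322 and 573 CPM in B2T3 against 203, 166, 164 and 298 CPM in B1T3. The 290 µL/s library was the highest of each culture. Without both libraries at 50 µL/s, 15 of the 39 purine and pyrimidine genes were higher in place of 2, with 2 lower, and 5 of 63 amino acid biosynthesis genes were higher in place of 1.

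No gene passed in either direction among 67 cytosolic ribosomal protein genes, 88 ribosome biogenesis factors, 37 translation factors, 35 proteasome genes, 32 trehalose, glycogen and general stress genes, 42 cell wall genes, 36 cyclins and cell cycle genes, 32 iron and copper genes, 22 unfolded protein response genes or 44 meiosis and sporulation genes. Without both libraries at 50 µL/s, 12 of the general stress genes and 3 of the cytosolic ribosomal protein genes were lower, as was 1 gene each of ribosome biogenesis, translation factors and the proteasome. Of the cell wall genes 6 were then higher and 2 lower, and 3 cell cycle genes and 2 iron and copper genes were higher. Of the cytosolic ribosomal protein genes 43 were lower in B2T3 at all 4 speeds, with a median log2 fold change of -0.07, and of all genes tested 781 of 5142 were. Ribosome biogenesis factors had a median of -0.17. Their median difference was -0.50 in the 50 µL/s pair and -0.11, 0.02 and -0.07 in the pairs of higher speed. For the general stress genes the medians were 0.23 at 50 µL/s and -0.09, -0.12 and -0.07 at the higher speeds. The general stress list thus had the opposite sign in the pair that holds 50 µL/s B1T3.

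The size of the difference changed with pipetting speed for part of the sterol genes. Over the 104 higher genes the median log2 difference between the paired libraries was largest at 50 µL/s, with values of 0.61, 0.52, 0.49 and 0.42 in order of speed. For 39 of them it fell at every step, and for 63 it was largest at 50 µL/s. Over all genes tested, the medians lay between -0.007 and -0.001, 408 of 5142 fell at every step, and 1728 were largest at 50 µL/s. For the sterol list the medians were 0.73, 0.70, 0.69 and 0.53 in order of speed, and 17 of 29 genes fell at every step. The respiratory list had medians of 0.57, 0.40, 0.42 and 0.47, and 4 of 25 genes did.

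The change with speed was tested as a slope, with speed as 1 number and a step of 80 µL/s, an alternative added after these differences were seen. 15 genes or 0.292% of those tested passed at an FDR below 0.01, with 11 negative slopes and 4 positive ones, and 892 genes had an unadjusted p below 0.05. ERG5 had the lowest p, with a slope of -0.56 ± 0.02 per step on the log2 scale (adjusted p = 1.02e-05). Its difference was 2.20, 1.72, 1.16 and 0.53 in order of speed. HMG1, SCM4, ARE2 and ERG1 had slopes of -0.45, -0.48, -0.38 and -0.23, and these 4 were also among the 104 higher genes. The other negative slopes were those of IZH1 (-0.31), a membrane protein of zinc homeostasis, HMX1 (-0.44), the heme oxygenase, UBX6 (-0.28), DAN1 (-0.56), an anaerobic cell wall mannoprotein, CYC7 (-0.36) and HEM13 (-0.19), an oxygen-dependent enzyme of heme synthesis.

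HEM13 had 449, 520, 517 and 582 CPM in B2T3 against 439, 604, 685 and 851 CPM in B1T3, so that its cultures were closest at the lowest speed and furthest apart at the highest. DAN1 had 55.5, 56.7, 49.2 and 48.4 CPM in B2T3 against 15.1, 32.3, 34.3 and 47.4 CPM in B1T3, where the change lay in B1T3. The 4 positive slopes were those of GCV2 (0.36), GCV1 (0.24) and SHM2 (0.28) of glycine and one-carbon metabolism and ADE57 (0.23) of purine synthesis. SHM2 had 561, 514, 587 and 733 CPM in B2T3 against 611, 460, 414 and 456 CPM in B1T3. Within technical replicate 3 there was 1 library for each culture and speed, and the study set an order of spotting against confounding with speed in its growth assay. For the RNA samples the order is not given in the sources used here, and its part in these slopes was not tested.

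**Figure D4:**
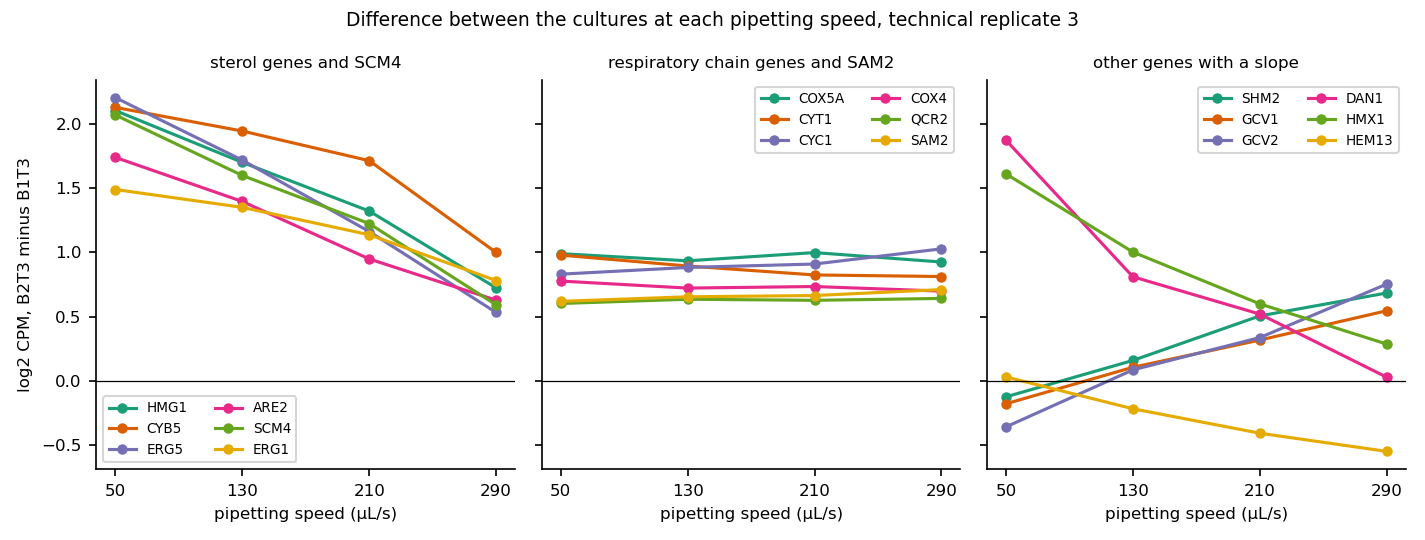
Difference in log2 CPM, B2T3 minus B1T3, at each pipetting speed for 6 sterol or related genes, 6 respiratory or sulfur genes and 6 further genes. ERG5 falls to 0.53 at 290 µL/s, COX5A stays near its fold change of 0.96 at all speeds, and GCV2, GCV1 and SHM2 cross 0 between 50 and 130 µL/s.

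Whether the difference between the cultures was the same in the other technical replicates was tested with all 24 samples. Within technical replicate 1, edgeR's quasi-likelihood test called 0 genes between the cultures. There were 322 genes at an unadjusted p below 0.05, DESeq2 called 1 higher and 9 lower, and limma-voom called 0. Within technical replicate 2, 265 genes were higher (5.16%) and 140 lower (2.72%) in biological replicate 2. Of the 104 genes higher in B2T3, 19 were also called higher within technical replicate 2 and 4 were called lower there, and the median log2 fold change of the 104 was 0.08 in technical replicate 2 and -0.01 in technical replicate 1. Of the 20 lower genes, 5 were called lower within technical replicate 2 and 8 were called higher. Both sets were chosen by their values in technical replicate 3, so smaller differences in the others follow in part from the choice.

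The test of the difference of differences found 62 genes (1.21%) with a larger value of B2 over B1 in technical replicate 3 than in technical replicate 1 and 3 genes (0.0583%) with a smaller one. Against technical replicate 2 the numbers were 130 (2.53%) and 167 (3.25%). Of the 104 higher genes, 54 passed against technical replicate 1 and 48 against technical replicate 2, in the same direction. Of the 20 lower genes, 2 passed against technical replicate 1, HAP1 with -0.45 and SND1 with -0.46, and 9 against technical replicate 2. The values in technical replicate 3 that chose both sets also enter these tests, so the choice itself favours the same direction. The 62 genes became 18 without 130 µL/s B2T3, 41 without 210 µL/s B1T3 and 101 without 290 µL/s B2T3. The 3 genes became 0 without the B1T3 library at 290 or at 210 µL/s or the B2T3 library at 130 µL/s. They became 1 without 130 µL/s B1T3, 9 without 50 µL/s B1T3 and 12 without 290 µL/s B2T3.

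In the sterol list, 21 of 29 genes passed against technical replicate 1 and 17 against technical replicate 2, all with a larger value in technical replicate 3. ERG11 had a log2 fold change of 1.06 in technical replicate 3, 0.05 in technical replicate 2 and -0.03 in technical replicate 1, and its differences were 1.11 (adjusted p = 0.0014) against technical replicate 1 and 1.04 (adjusted p = 0.00018) against technical replicate 2. CYB5 differed by 1.81 against technical replicate 1 and by 1.95 against technical replicate 2, HMG1 by 1.57 and 1.39, and ERG5 by 1.48 and 1.59. Within technical replicate 2, 5 of the 25 respiratory genes were also called higher, with a list median of 0.12, against 5.16% of all genes tested. In the respiratory list 8 of 25 genes passed against technical replicate 1, COX4, COX5A, COX6, QCR7, COR1, CYT1, RIP1 and ATP7. Against technical replicate 2 there were 8 with a larger and 1, NDE2, with a smaller value. COX5A differed by 1.00 and 0.81 and RIP1 by 0.88 and 0.70, in the same order. CYC1, with a log2 fold change of 0.36 in technical replicate 2, passed neither test. Its SE was 0.26 in both tests, which share 1 speed term over all samples, against 0.04 in the paired test within technical replicate 3.

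The glucose-repressed genes went the other way in technical replicate 2. Within technical replicate 2, 22 of the 32 were called higher in biological replicate 2, with a median log2 fold change of 0.69, against a median of -0.18 in technical replicate 3 and -0.16 in technical replicate 1. Between technical replicates 3 and 2 the difference passed for 20 of 32, all with a smaller value in technical replicate 3, and between technical replicates 3 and 1 for none. ICL1 had a log2 fold change of -0.63 in technical replicate 3, 2.37 in technical replicate 2 and -0.49 in technical replicate 1. JEN1 had -0.65, 2.46 and -0.77 in the same order, and ACS1 had -0.60, 0.95 and -0.28. CIT2 and GDH2 had the same arrangement of signs, with 0.91 and 0.68 in technical replicate 2.

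**Figure D5:**
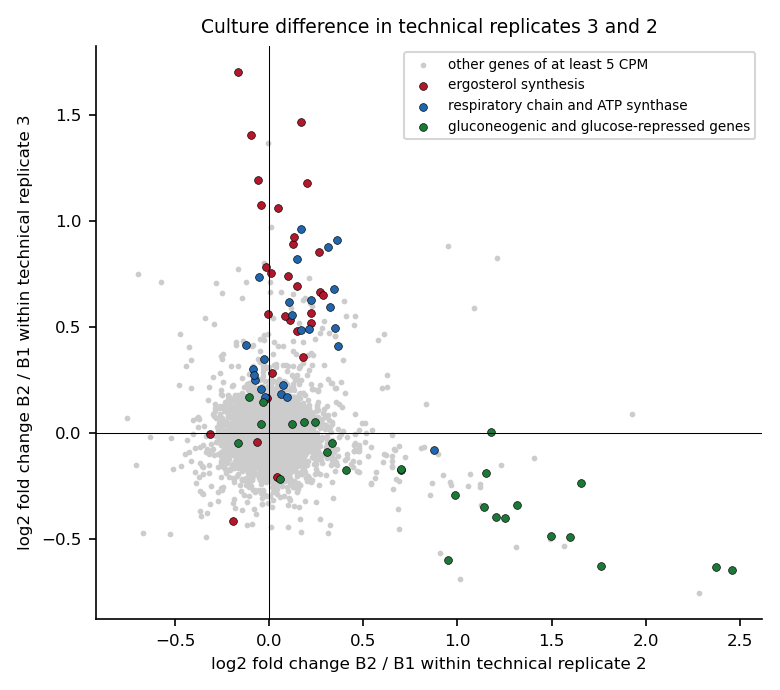
Log2 fold change of biological replicate 2 over biological replicate 1 within technical replicate 3 (vertical axis) against that within technical replicate 2 (horizontal axis) for genes of at least 5 CPM, with 3 lists coloured. Most sterol and respiratory genes lie above 0 on the vertical axis, and on the horizontal one the medians of their lists are 0.09 and 0.12. Glucose-repressed genes reach 2.46 on the horizontal axis (JEN1) while lying mostly below 0 on the vertical axis.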

How the data were processed

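Groups were taken from the sample titles. Per the paper and the labels, the authors prepared directional poly(A) libraries, trimmed reads with fastp 0.23.2, aligned them to the W303 genome with STAR 2.7.10a and quantified them with RSEM using strand. Expected counts, as deposited, are estimates of reads by gene without normalization. In technical replicate 3, 25.3% were not whole, and all were rounded. The deposited TPM values were normalized by the authors for gene length and library. Gene names came from an R64 annotation by systematic name (5151 matched, 42 did not). No table of the whole series and no growth assay was used here.

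The study's filter kept genes whose average count was above 1. The study's model, count ~ speed + biorep, was fitted to the 8 libraries with edgeR 4.0.16 (TMM, quasi-likelihood test) in R 4.3.3, with p-values adjusted after Benjamini and Hochberg and calls made at an FDR below 0.01. Differences between technical replicates were contrasts in 1 fit of all 24 samples with a coefficient for each culture and technical replicate. Speed was a term shared by all 24 samples, so speed effects particular to technical replicate 3 were not taken out. CPM used TMM library sizes, and differences at single speeds used a prior count of 0.5. Alternatives were DESeq2 1.42.0, limma 3.58.1 with voom, other normalizations, filters and terms, and each library left out. Figures were drawn with Python 3.11.15.

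Named genes were, among genes past the threshold with 1 sign at all 4 speeds and at least 5 CPM, the 10 of largest change and the 3 of lowest p in each direction, up to 3 of lowest p in each gene list, the mating type and marker genes, and the 5 of lowest p for each difference between technical replicates. Other members of the sterol and respiratory lists and genes said to be picked by value were named after their values were seen. The members and lists were chosen with earlier results of these data known. Speed pairs the libraries in the study's model. Deviations of libraries of the same speed from their culture's mean correlated at 0.296, 0.104, -0.0669 and 0.536 in order of speed. For the B2T3 libraries at 50 and 290 µL/s, the correlation was highest with the partner of the same speed. Those at 130 and 210 µL/s correlated more with 50 µL/s B1T3 (0.323 and 0.0332) than with their partners.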

Additional observations from a re-analysis of the deposited data

Results flagged for a closer look

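Within a culture of technical replicate 3, 1 library lay far from the other 3 in 10 of 146 groups of values, where chance flags about 1 in 20. The groups held values of named genes, total counts, fragment lengths and shares of the most abundant genes, and all 10 flagged were of named genes. In B2T3 these were ADE2 (adenine synthesis) at 305 CPM and MPC3 (a mitochondrial pyruvate carrier subunit) at 50.6 CPM at 50 µL/s, ASG7 (an a-cell specific gene) at 0.173 CPM at 130 µL/s, NDT80 (a meiotic transcription factor) at 3.29 CPM at 210 µL/s and ADE3 at 1366 CPM at 290 µL/s. In B1T3 they were SDH2 at 204 CPM and SOD2 at 257 CPM at 50 µL/s, CAN1 (the arginine permease) at 222 CPM at 130 µL/s, and ACS1 at 34.0 CPM and MET6 at 1580 CPM at 290 µL/s.

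The difference between the cultures itself differed between technical replicates 3 and 1 for 65 genes and between technical replicates 3 and 2 for 297 genes. The lowest p-values against technical replicate 1 were those of ERG1 (1.22 on the log2 scale), ERG3 (1.12), ERG11 (1.11), ANB1 (0.60) and ERG24 (0.57). Against technical replicate 2 they were those of JEN1 (-3.11), YGR067C (-3.04), ICL1 (-3.01), MPC3 (-1.36) and GDH2 (-1.05).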

How the results depend on the processing

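Given as genes higher and lower in B2T3, the 104 and 20 were 209 and 95 with edgeR's likelihood ratio test, 172 and 52 with speed as 1 number, 170 and 50 with all 24 samples in 1 fit, 207 and 84 at an FDR threshold of 0.05, and 136 and 35 with DESeq2. Without the speed term, that is without the block pairing the libraries, they were 54 and 8. Leaving out 1 library of technical replicate 3 gave 46 to 231 higher and 3 to 138 lower. The partner of that library then informs only the term for its speed, so each such fit in effect left out a pair. The lowest came without either library at 130 µL/s, followed by 60 and 6 or 66 and 6 without 1 at 210 µL/s, and the highest without 1 at 50 µL/s. Without both libraries at 50 µL/s, an alternative chosen after seeing the data, 232 were higher and 132 lower. 48 of the 124 genes passed in every fit that left out 1 library. For the difference from technical replicate 1, DESeq2 gave 12 lower genes in place of 3, and leaving out 1 library of technical replicate 3 gave 18 to 101 higher and 0 to 12 lower. For 49 named genes past the threshold, 917 of 1078 values under the alternatives stayed past it. That share is raised by alternatives that could hardly lose a gene. The FDR threshold of 0.05, no filter and the likelihood ratio test each kept all 124 genes. In every fit that left out 1 library, 15 of the 49 stayed past the threshold. No direction was reversed, but all called genes had the same sign at every speed. Leaving out a library could therefore hardly reverse one. Depth limits genes of few counts such as ASG7, with 0.173 to 0.514 CPM in B2T3 and 0.444 to 0.671 CPM in B1T3 and an SE of 0.38. Each side is 1 culture, so within technical replicate 3 the culture and its handling cannot be told apart. The other technical replicates sampled these same cultures, and what differed in the handling of technical replicate 3 was not tested.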
